A study of Homo sapiens with 6 samples.

Results

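The genes described here encode the machinery that makes replication-dependent histone mRNAs, and were chosen by gene name. There are 10: NPAT and CASP8AP2 act in transcription of histone genes, SLBP binds the end of the mRNA, ZNF473, LSM10 and LSM11 belong to or bind the U7 small nuclear ribonucleoprotein (snRNP), CPSF3, SYMPK and CSTF2 form part of the cleavage complex, and ERI1 trims the cut end. Of these, 9 have rows in the authors' deposited table, out of 20660 gene names there, and the level of CASP8AP2 was not analysed here; only its promoter is described. The 9 genes have 35 coding sequences, of which the authors tested 23. FaDu, a human squamous carcinoma line of the hypopharynx, was treated with BB608, a compound known here only by its code name, or with the vehicle DMSO. The sources used here give neither dose nor duration. Each group had 3 biological replicates. The table holds 1 FPKM value (fragments per kilobase of sequence, scaled to library size) per coding sequence and group, pooled by the authors, so the spread between libraries and the sequencing depth are unknown, and whether groups overlap cannot be seen. The question was how BB608 changes gene expression in this cell line.

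Histone genes that are switched on with DNA replication give mRNAs that end in a conserved stem-loop and carry no poly(A) tail. NPAT, a substrate of cyclin E and CDK2, gathers with CASP8AP2 (also called FLASH) at the histone gene clusters in nuclear histone locus bodies. SLBP binds the stem-loop, U7 snRNA pairs with a site downstream of it, and the endonuclease CPSF3 cuts between them, held by the scaffold protein SYMPK together with CSTF2. CPSF3, SYMPK and CSTF2 also serve in cleavage of ordinary polyadenylated mRNAs. The libraries were made from total RNA after removal of ribosomal RNA, so that mRNAs without a poly(A) tail could be read as well.

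The RNAs on which these proteins act are shown first, to give the parts that SLBP, ERI1, LSM10 and LSM11 recognise. The U7 snRNA sequence is from GENCODE 29, is 63 bases long and is written as DNA. Its capitals mark bases 21 to 31, the Sm-type site on which the ring holding LSM10 and LSM11 assembles.
RNU7-1: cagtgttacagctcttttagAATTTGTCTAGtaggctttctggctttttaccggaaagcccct
The stem-loop is 16 bases long, with 6-base stem arms and a loop of 4 bases, given in capitals below. A search for the histone stem-loop motif on the sense strand found it in GENCODE 29 transcripts of 26 of the 60 histone cluster genes tested in the authors' table, in 6 spellings. For the other 34 genes these letters were not in the annotated transcripts. The 3 spellings held by most genes are printed, each with the most abundant gene that has it.
HIST1H2BH: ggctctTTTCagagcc
HIST1H4H: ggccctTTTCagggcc
HIST1H2BD: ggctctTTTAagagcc
The first spelling was found in 14 genes, the second in 5 and the third in 4. The gene sum, meaning the FPKM of all its coding sequences added up, was 806 FPKM in DMSO and 1039 FPKM in BB608 for HIST1H2BH. For HIST1H4H it was 717 and 808 FPKM, and for HIST1H2BD 474 and 561 FPKM. All 60 tested histone cluster genes were higher in BB608 in the authors' deposited table, and 30 of them had a q under 0.05. Over the whole table, 54.3% of tested coding sequences were higher in BB608, and 1.06% of tested genes had a sequence with such a q.

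With BB608, 1 of the 23 tested coding sequences of the machinery had a q under 0.05 from Cuffdiff in the authors' deposited table, a rise in CSTF2. Over all genes, 0.354% of tested coding sequences were called by that q, and 1.06% of tested genes had a called one. The other 22 sequences, and so the 8 genes other than CSTF2, were not called. Their p-values in the authors' deposited table were 0.147 or more, and each had a q of 0.997. At an unadjusted p under 0.05 the count was also 1, against 3.31% of all tested coding sequences. In these bulk samples a change in the share of cells with a transcript and a change in its amount per cell cannot be told apart. Among the 23, 11 were higher and 12 lower in BB608. By gene sums 4 genes were higher in BB608 (SYMPK, NPAT, CSTF2 and ERI1) and 5 lower. The median log2 ratio of the 9 gene sums was -0.03. Over the 10859 kept genes, those with a tested sequence, no failed row and a gene sum that reached 1 FPKM in at least one group, 57.6% were higher and the median was 0.03. The ratio of ERI1 lies so near 0 that its sign turned under 2 scalings, by the median ratio and by quantiles.

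**Figure D1:**
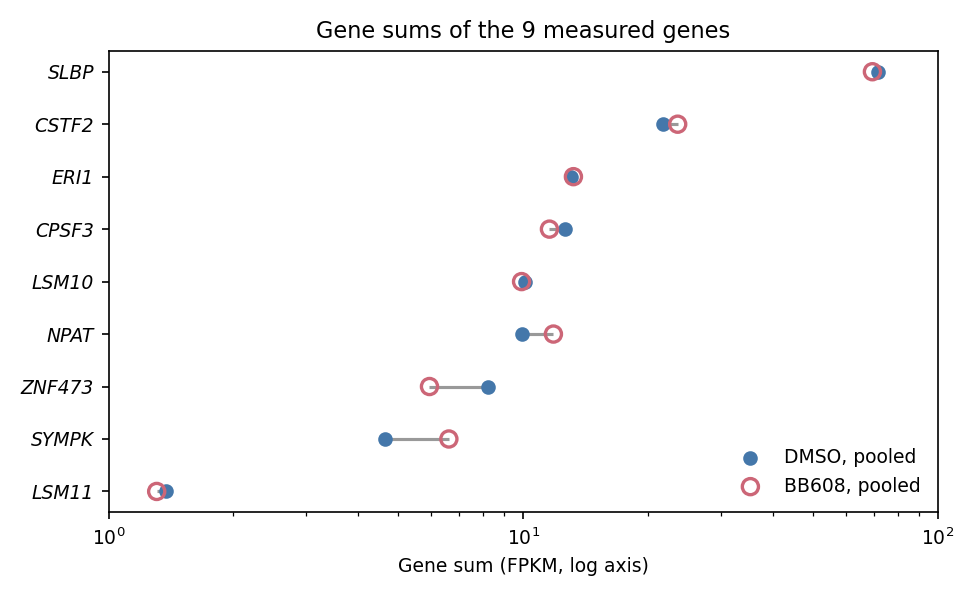
Gene sums in FPKM on a log axis for the 9 measured genes, with filled points for DMSO and open points for BB608, each a value pooled by the authors over 3 libraries and therefore without error bars. SLBP stands highest, at 71.6 and 69.6 FPKM, and LSM11 lowest, at 1.38 and 1.31 FPKM; ZNF473 and SYMPK lie furthest apart between groups, in opposite directions.

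The levels of the genes spanned a wide range. SLBP had the highest gene sum in DMSO, 71.6 FPKM, followed by CSTF2 at 21.8, ERI1 at 13.0, CPSF3 at 12.6, LSM10 at 10.1, NPAT at 9.96, ZNF473 at 8.22, SYMPK at 4.64 and LSM11 at 1.38 FPKM. SLBP lay at percentile 89.0 of gene sums in DMSO and LSM11 at percentile 6.47. In BB608 the order of SLBP, CSTF2 and ERI1 at the top and of LSM11 at the bottom was the same, while NPAT stood above LSM10 and CPSF3, and SYMPK above ZNF473. An error, called the implied SE, was derived for each tested fold from the authors' statistic and a common ratio fitted to the authors' p-values. It is not computed from each sequence's own p-value and need not reproduce it. Neighbours in this order were compared with the implied SE of their most abundant sequence, which is an SE of a fold between groups and only a yardstick here. ERI1 and CPSF3 differed by 0.05 log2 in DMSO and LSM10 and NPAT by 0.02 log2, both less than the implied SEs of 0.14 to 0.30 of these 4 genes. The gaps of 1.72 log2 between SLBP and CSTF2 and of 0.74 log2 between CSTF2 and ERI1 were larger than the implied SEs of those genes.

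NPAT, the transcriptional coactivator, had 3 coding sequences. In the authors' deposited table the most abundant stood at 6.26 FPKM with DMSO and 7.01 FPKM with BB608, and its log2 fold was 0.16 (implied SE 0.30; p 0.586). The second was at 3.55 and 4.35 FPKM in that table, with a log2 fold of 0.29 and an implied SE of 1.11. The third, untested, was at 0.149 and 0.466 FPKM. All 3 were thus higher in BB608, and the gene sums of 9.96 and 11.8 FPKM gave a log2 ratio of 0.25, without a call. For the most abundant sequence the approximate 95% interval of the log2 fold ran from -0.42 to 0.75. The table places NPAT on chromosome 11 of hg19 in a locus from 108027296 to 108338258, which it shares with 3 other gene names, among them ATM and C11orf65. ATM, which encodes a DNA damage kinase, had gene sums of 18.3 FPKM in DMSO and 18.7 FPKM in BB608, and none of its 6 tested sequences was called. C11orf65 was at 5.66 and 4.33 FPKM. The sources used here do not say whether counting separated the reads of these neighbours by strand.

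SLBP, the stem-loop binding protein that accompanies the mRNA through processing, export and translation, was carried by a pair of coding sequences. In the authors' deposited table the most abundant stood at 37.6 FPKM with DMSO and 38.1 FPKM with BB608, and its log2 fold was 0.02 with an implied SE of 0.13 and a p of 0.892. The next was at 31.5 and 27.6 FPKM, a log2 fold of -0.19 with an implied SE of 0.23. Together they held 96.6% of the SLBP gene sum in DMSO and 94.4% in BB608. The approximate 95% interval for the most abundant sequence, from -0.23 to 0.27 log2, corresponds to a level in BB608 between 0.852 and 1.20 times that in DMSO. The third SLBP sequence was at 1.20 and 3.34 FPKM in the deposited table, but its log2 fold of 1.48 had an implied SE of 1.64. The gene sum was 71.6 and 69.6 FPKM, a log2 ratio of -0.04. The summed FPKM of the 60 tested histone cluster genes was 247 times the SLBP gene sum in DMSO and 326 times in BB608; near-identical histone genes share reads, and this ratio has no error. SLBP lies on chromosome 4 of hg19, from 1694462 to 1714282 as the table gives it.

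The transcripts of both U7-specific ring proteins were near equal in the 2 groups, with small implied SEs. LSM10 and LSM11 take the place of the Sm proteins D1 and D2 in the U7 ring, at the site shown in capitals in the U7 sequence. LSM10 has 1 coding sequence, which the authors' deposited table puts at 10.1 FPKM with DMSO and 9.91 FPKM with BB608, for a log2 fold of -0.03 (implied SE 0.15; p 0.859). LSM11, also with 1 coding sequence, was at 1.38 and 1.31 FPKM there, so its log2 fold was -0.08 (implied SE 0.13; p 0.550). For LSM10 the approximate 95% interval was -0.31 to 0.26 log2 and for LSM11 it was -0.33 to 0.18 log2. Both folds were smaller than their implied SE. The LSM10 level was 7.32 times that of LSM11 in DMSO and 7.59 times in BB608, per length. LSM10 lies on chromosome 1 of hg19 (36856838 to 36863493) and LSM11 on chromosome 5 (157170702 to 157187717).

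ZNF473 (also called ZFP100), a zinc finger protein that links SLBP on its stem-loop to LSM11, had the lowest ratio of the 9 genes. Its most abundant coding sequence, at 4.26 FPKM with DMSO and 3.34 FPKM with BB608 in the authors' deposited table, had a log2 fold of -0.35 with an implied SE of 0.24 and a p of 0.147, the smallest p among the uncalled sequences. All 6 ZNF473 sequences, 4 of them tested, were lower in BB608. The gene sum was 8.22 FPKM in DMSO and 5.94 FPKM in BB608, a log2 ratio of -0.47, which is at percentile 5.42 of all kept genes. Sequences of a gene share reads, so these 6 are not separate observations, and none was called. The approximate 95% interval of the most abundant one, from -0.82 to 0.13 log2, includes both no difference and a level in BB608 of 0.565 times that in DMSO. ZNF473 lies on chromosome 19 of hg19, from 50479723 to 50570050.

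**Figure D2:**
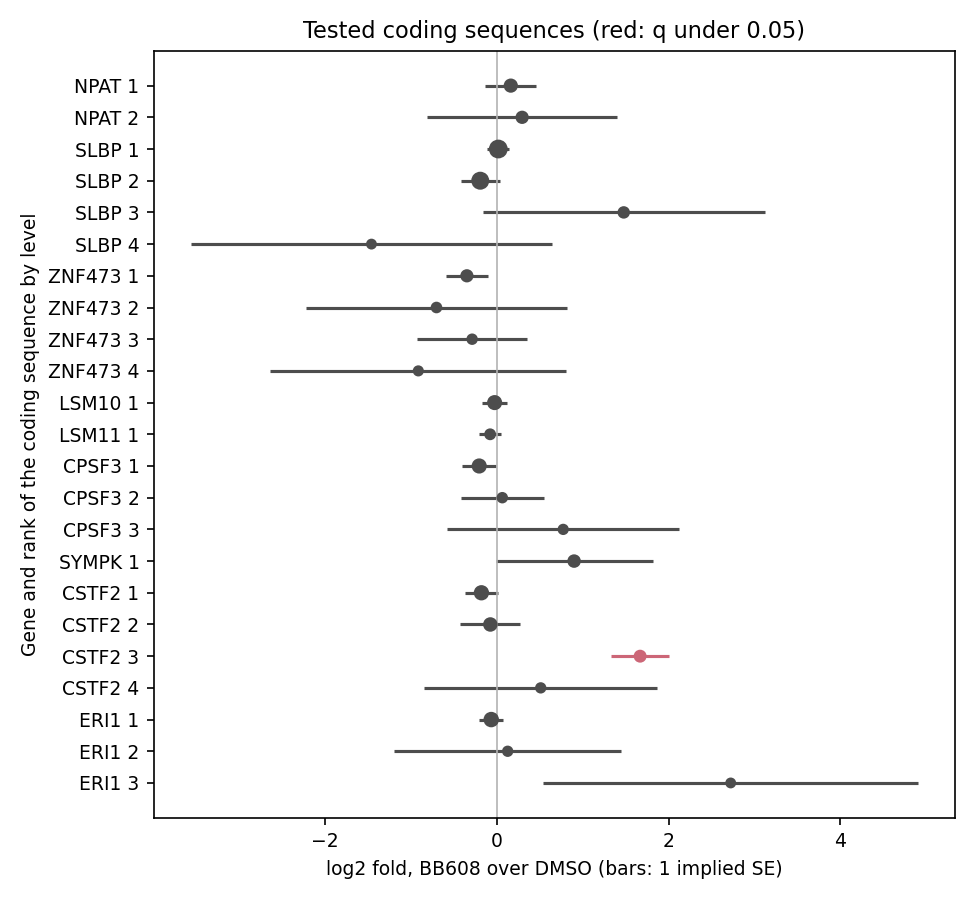
Log2 fold of BB608 over DMSO from the authors' deposited table for the 23 tested coding sequences, numbered by level within each gene, with bars of 1 implied SE and point area growing with FPKM. CSTF2 3, in red, is at 1.67 log2 and is the one sequence with a q under 0.05; SLBP 1, LSM10 and LSM11 sit close to 0 with short bars, and ERI1 3 is the furthest right with a long bar.

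In the cleavage complex, the CSTF2 rise was in a minor coding sequence. CSTF2 encodes the RNA-binding subunit of the cleavage stimulation factor. Of its 4 sequences, the one with rank 3 by level was listed at 1.51 FPKM with DMSO and 4.81 FPKM with BB608 in the authors' deposited table. Its log2 fold was 1.67 (implied SE 0.34), the p 5e-05 and the q 0.0154. The p is the smallest that Cuffdiff gave in this table. A called sequence of INTS1, described below, has the same p and q, so this p does not rank CSTF2 above other calls. The call rests on that p: the authors' statistic for this sequence, read directly as a normal deviate, gives a p of 0.00422 before adjustment and, after it, a q of 1, a comparison added after seeing the data. The approximate 95% interval ran from 1.01 to 2.33 log2, or 2.01 to 5.02 times the DMSO level. The ratio behind the implied SE was fitted without rows at the smallest p, this one among them. With the statistic read directly as a normal deviate, the interval would be wider and its lower bound below 1.01 log2. The most abundant CSTF2 sequence was listed at 11.7 FPKM with DMSO and 10.3 FPKM with BB608, and its log2 fold was -0.18 (implied SE 0.19; p 0.317) in that table. The second was at 7.85 and 7.45 FPKM, and the fourth at 0.679 and 0.968 FPKM, neither called. The called sequence gained 3.30 FPKM while the other 3 together changed from 20.3 to 18.8 FPKM. Its share of the CSTF2 gene sum was 6.96% in DMSO and 20.4% in BB608. The gene sum was 21.8 FPKM in DMSO and 23.6 FPKM in BB608, a log2 ratio of 0.12 at percentile 65.8 of all kept genes.

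The CSTF2 gene sum thus differed far less between groups than the called sequence did. GENCODE 29 lists 4 CSTF2 transcripts with a coding part, 3 of them protein coding and 1 subject to nonsense-mediated decay, but the deposited table does not pair its identifiers with transcripts, so which one the called row stands for is not known. Genes with more than 1 tested coding sequence gave 41 calls among 30923 sequences, or 0.133%, and 13 of these calls, or 0.042%, were rises. In 7 of the 13, CSTF2 included, the log2 ratio of the gene sum was under 0.5 times that of the called sequence. CSTF2 lies on chromosome X of hg19, from 100075383 to 100096969. CSTF2T, its intronless paralog on an autosome, has 1 coding sequence, listed at 9.91 FPKM with DMSO and 11.2 FPKM with BB608 in the authors' deposited table, where the log2 fold was 0.18 (implied SE 0.10; p 0.0937). Reads common to both genes could be divided between them, and the sources used here do not say how such reads were handled.

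CPSF3, the endonuclease, and SYMPK, the scaffold, were not called. The authors' deposited table puts the main CPSF3 sequence at 11.1 FPKM with DMSO and 9.63 FPKM with BB608, and its log2 fold was -0.21 (implied SE 0.20; p 0.289), with an approximate 95% interval from -0.60 to 0.19. The other 2 CPSF3 sequences were under 1 FPKM in both groups, and the gene sum was 12.6 and 11.6 FPKM. SYMPK had 1 tested sequence among 7, at 3.14 FPKM with DMSO and 5.85 FPKM with BB608, and its log2 fold was 0.90 with an implied SE of 0.91 and a p of 0.333 in that table. Its gene sum was 4.64 and 6.62 FPKM, the highest log2 ratio of the 9 genes at 0.51 and percentile 93.5 of all kept genes. The interval of the tested sequence was wide, from -0.89 to 2.69 log2, so a rise of that size and no difference are both inside it. CPSF3 lies on chromosome 2 of hg19 (9563696 to 9613230) and SYMPK on chromosome 19 (46318667 to 46366548).

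ERI1, the 3′ exonuclease that binds the stem-loop and takes part in trimming and decay of histone mRNA, had 3 tested sequences. The most abundant, at 12.1 FPKM with DMSO and 11.6 FPKM with BB608 in the authors' deposited table, showed a log2 fold of -0.07 (implied SE 0.14; p 0.637). Its least abundant sequence had the largest log2 fold of all 23, at 2.72, from 0.120 to 0.794 FPKM, but the implied SE was 2.18 and the p 0.25 in that table. The ERI1 gene sum was 13.0 and 13.2 FPKM. This pattern recurred: 9 of the 23 tested sequences had an implied SE over 1 log2, and the highest of these was at 3.55 FPKM in DMSO. By contrast 8 sequences of 7 genes had an implied SE under 0.25 log2, with folds from -0.35 to 0.02. Their approximate 95% intervals together reached from -0.82 to 0.27 log2, so the highest bound was 1.20 times the DMSO level. These 8 were picked for a small implied SE. Their intervals would be wider with the authors' statistic read directly as a normal deviate, so a larger rise is not excluded. A missed threshold does not show that a sequence stayed level.

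**Figure D3:**
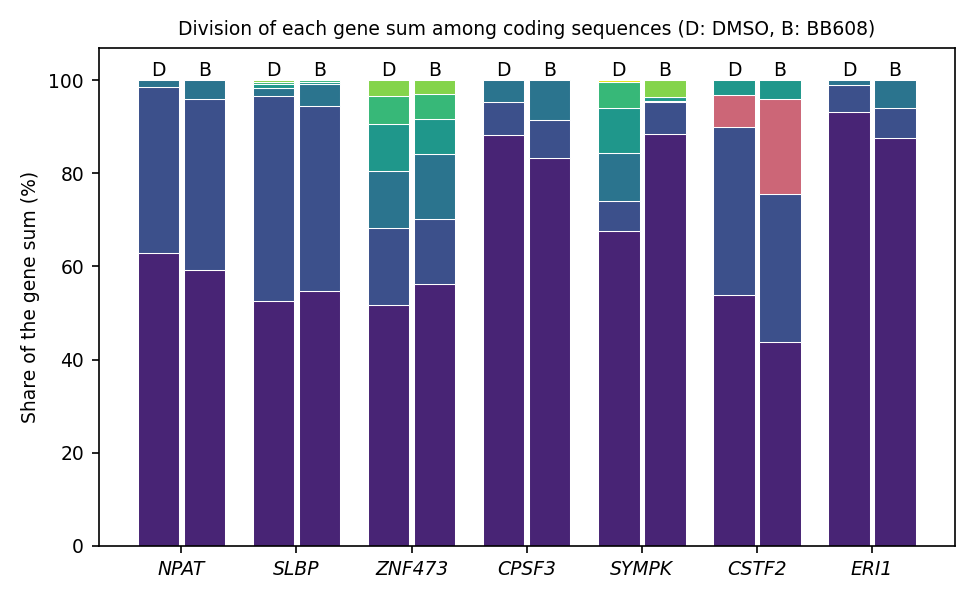
Percent of each gene sum held by each coding sequence in DMSO (D) and BB608 (B) for the 7 genes with more than 1, stacked from the most abundant at the bottom, with the called CSTF2 sequence in red. The red share went from 6.96% to 20.4%, and the lowest SYMPK block from 67.6% to 88.5%, with no call for SYMPK.

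The division of a gene sum among its sequences was summarised as the percent of the sum that changed place between groups. It was 14.4% for CSTF2 and 24.8% for SYMPK, and from 3.62% to 6.17% for NPAT, CPSF3, SLBP, ERI1 and ZNF473. Over the 9176 kept genes with more than 1 sequence the median was 9.60% and the upper quartile 17.8%. CSTF2 thus lay at percentile 66.7 and SYMPK at percentile 85.7, while the other 5 genes lay below the median. The value for CSTF2 was between the median and the upper quartile. This measure has no error and carries no test.

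The promoters of the genes, 250 bases before to 50 bases after the RefSeq start on GRCh38.p14, were matched by symbol for 8 of the 10 genes; ERI1 and ZNF473 had no entry. The 8 letters TTTGGCGC, a spelling of the site of E2F factors, which drive genes of the G1/S transition, were searched on both strands. They were found in CPSF3, CASP8AP2 and CSTF2, so in 3 of 8, against 0.652% of all 35116 promoters in the table and 1.04% of promoters of kept genes. The motif was chosen after these sequences were seen, and the count is a description only. The 30 bases around each match are shown, on the plus strand, with the 8 letters in capitals.
CPSF3: gtgccgcggccTTTGGCGCccaggcagcta
CASP8AP2: gattactggagTTTGGCGCcaaccgtgttt
CSTF2: cggaagtgtgcTTTGGCGCaccggaagccg
These windows are chr2:9423425-9423454, chr6:89829720-89829749 and chrX:100820374-100820403 on GRCh38.p14. In CPSF3 the match begins 218 bases before the start, in CASP8AP2 149 bases before it, and in CSTF2 6 bases before it, so that the CSTF2 match runs across the start. With 3 further spellings, TTTCCCGC, TTTGCCGC and TTTCGCGC, the same 3 genes were found, against 3.31% of all promoters and 5.06% of promoters of kept genes. Any of the 4 spellings was also found in 7 of 51 genes with a promoter entry from the pathway lists described below. The 5 letters CCAAT were found in LSM10, CASP8AP2 and NPAT, against 34.6% of all promoters. The 2 measured genes with TTTGGCGC had log2 ratios of gene sums of -0.12 (CPSF3) and 0.12 (CSTF2), in opposite directions and both small. The sign for CSTF2 rests on its called sequence, since its other 3 sequences together had a log2 ratio of -0.11.

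The surrounding pathway was read from 6 lists with 61 genes, of which 60 had a tested sequence. None of the 60 was called by Cuffdiff's q in the authors' deposited table, against 1.06% of all tested genes. At an unadjusted p under 0.05, 3 of them (5%) had a sequence, against 9.49% of all tested genes. The 3 were ATR, the replication checkpoint kinase, EIF4G1, a scaffold of translation initiation, and RBBP6, a cleavage factor subunit. The ATR sequence was at 16.9 FPKM with DMSO and 20.2 FPKM with BB608 (p 0.018), the EIF4G1 sequence at 22.0 and 42.4 FPKM (p 0.0444) and the RBBP6 sequence at 14.6 and 12.3 FPKM (p 0.0447) in that table. The RBBP6 gene sums were 16.5 FPKM in DMSO and 17.6 FPKM in BB608, opposite in direction to that sequence. For ATR and EIF4G1 the gene sums went the same way as the sequence. Over the 60 genes, gene sums were higher in BB608 for 34 and lower for 26, with a median log2 ratio of 0.03, close to that of all kept genes.

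Among 12 genes that act on histone gene transcription, 6 gene sums were higher and 6 lower, with a median log2 ratio of -0.01 and no call. CDK2, the kinase that phosphorylates NPAT, had the lowest ratio, with gene sums of 43.0 FPKM in DMSO and 33.6 FPKM in BB608. Its most abundant sequence showed a log2 fold of -0.42 (implied SE 0.27; p 0.121) in the authors' deposited table. POU2F1, the octamer-binding factor of H2B promoters, had gene sums of 4.71 and 6.49 FPKM, but its most abundant tested sequence had a log2 fold of -0.39 with an implied SE of 1.06. E2F4, the most abundant of the list, was at 49.5 and 52.5 FPKM.

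The 5 Sm proteins that complete the U7 ring are shared with spliceosomal snRNPs and were far more abundant than LSM10 and LSM11. Their gene sums in DMSO ran from 48.3 FPKM for SNRPF to 309 FPKM for SNRPG, and 4 of the 5 were lower in BB608, with a median log2 ratio of -0.03. SNRPD3 had the lowest ratio, at 120 FPKM with DMSO and 106 FPKM with BB608, and SNRPF the highest, at 48.3 and 53.2 FPKM. The most abundant SNRPF sequence had a log2 fold of -0.13 in the authors' deposited table, opposite in sign to its gene sum.

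Partners of CPSF3, SYMPK and CSTF2 in cleavage had a median log2 ratio of 0.10, with 5 of 8 gene sums higher. CPSF1, the largest subunit of the cleavage and polyadenylation specificity factor, was at 7.26 FPKM with DMSO and 10.2 FPKM with BB608. Its most abundant sequence had a log2 fold of 0.29 with an implied SE of 0.16 and a p of 0.0724 in the authors' deposited table. CPSF2, the partner of CPSF3 in the nuclease module, was at 204 and 221 FPKM, and FIP1L1 at 19.5 and 18.8 FPKM. The 11 other cleavage and polyadenylation factors stayed within a narrow range of gene sum ratios, from -0.06 log2 for CPSF7 to 0.12 log2 for SSU72. PAPOLA, the poly(A) polymerase, was at 329 and 352 FPKM.

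Of the genes for cap binding and translation, 6 of 7 kept gene sums were higher in BB608 and the median log2 ratio was 0.12. SRRT (ARS2), which joins the cap-binding complex to 3′ end formation, had gene sums of 88.1 FPKM in DMSO and 108 FPKM in BB608, and its most abundant sequence had a log2 fold of 0.34 with an implied SE of 0.49 in the authors' deposited table. EIF4G1 was at 218 and 252 FPKM and EIF4E, the cap-binding factor of translation, at 30.6 and 30.3 FPKM. Among 17 genes of histone mRNA decay, 10 gene sums were higher and 7 lower, with a median of 0.04. LSM2, of the LSM ring that binds oligouridylated ends, had the highest ratio of all lists, but at low level, 0.992 FPKM with DMSO and 2.31 FPKM with BB608, with an implied SE of 1.51 for a log2 fold of 1.22 in the authors' deposited table. LSM4 was at 11.3 and 9.23 FPKM and LSM5, the most abundant, at 163 and 158 FPKM.

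**Figure D4:**
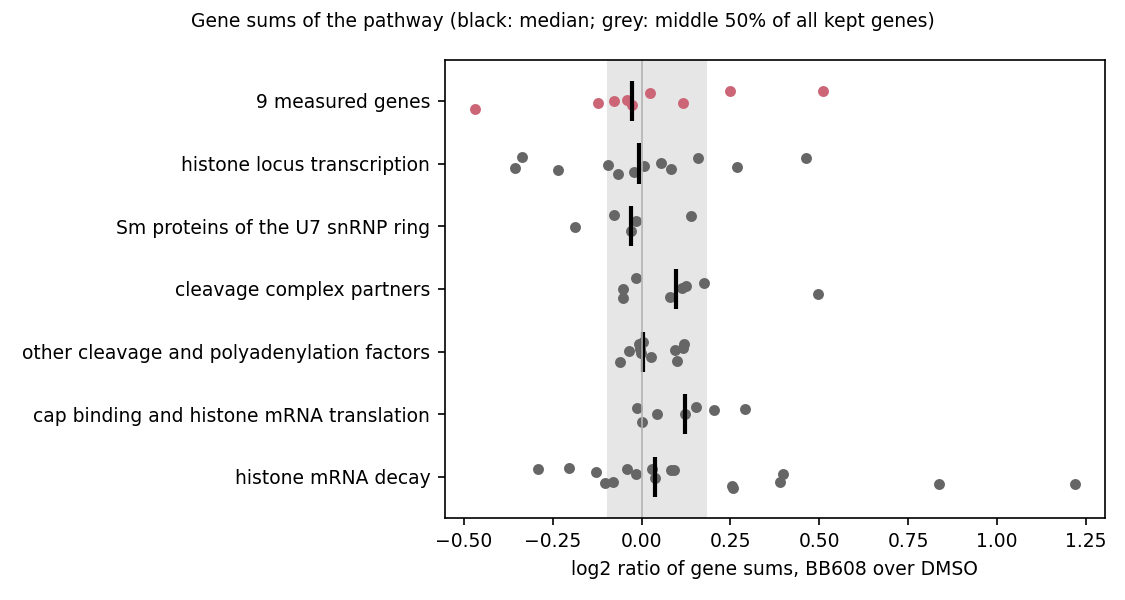
Log2 ratios of gene sums, BB608 over DMSO, for the 9 measured genes (red) and the genes of the 6 pathway lists (grey), with each list's median as a black bar and the middle 50% of all kept genes, from -0.09 to 0.18 log2, shaded. The 7 medians lie inside the shaded band, and 5 of the 9 measured genes do as well.

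The labelled cell type was checked against markers. All 7 squamous epithelial markers were present, from 20.6 FPKM for CDH1 to 2334 FPKM for KRT5 in DMSO, with summed levels of 3516 FPKM in DMSO and 3687 FPKM in BB608. All 5 fibroblast markers were under 1 FPKM in both groups, with sums of 0.980 and 0.865 FPKM. Of 4 blood markers only CD14 exceeded 1 FPKM, at 2.23 FPKM with DMSO and 2.24 FPKM with BB608. Of 3 endothelial markers PECAM1 was not analysed here, VWF was under 1 FPKM in both groups and CDH5 was at 3.82 and 4.09 FPKM. No marker was called.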

How the data were processed

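RNA was sequenced from 6 libraries of FaDu cells, 3 per group. Reads were processed with TopHat2 2.0.11, Cufflinks 2.2.1 and Cuffdiff on build hg19, per the submitters' processing notes; the sources used here name no annotation. The authors deposited 1 FPKM value per coding sequence and group, together with a q-value, a p-value, a log2 fold and a test statistic, which is a score. No column of per-library values was used, so depth and replicate spread are unknown and no new test was run. Recomputing the Benjamini-Hochberg q from the deposited p-values over 34474 tested rows gave differences up to 5.23e-07.

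The implied SE is the log2 fold divided by the authors' statistic and by a common ratio, 1.74. This ratio is the median of the normal quantile of p over the statistic in 34053 rows, without those at the smallest p. Intervals use the implied SE with a normal quantile and are approximate. They are fitted to the authors' p-values and are no independent check of them. Gene sums add all coding sequences of a gene name. Genes were kept with a tested sequence, no failed row and a sum of 1 FPKM or more in at least one group. Python 3.11.15, pandas 2.3.3, scipy 1.17.1 and matplotlib 3.10.9 were used.

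The members and lists were chosen with earlier results of these data known. Named genes were all members, CSTF2T, and in each list the called genes and those with the highest gene sum, largest rise and largest fall; ATR, RBBP6, ATM, C11orf65 and the histone genes were named after their values were seen. The alternatives were other filters, fold bounds, scalings, pseudocounts of 0.1 and 1, and the most abundant sequence in place of the gene sum. Loci are given as in the authors' table.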

Additional observations from a re-analysis of the deposited data

How the results depend on the processing

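No paired analysis was possible because values are pooled within groups, and leaving out each replicate was not run for the same reason. The count of 1 called coding sequence among the machinery genes was the same with q over sequences of at least 1 FPKM, with a bound of 1 log2 and with an unadjusted p. For that sequence of CSTF2 the q was 0.0125 in the first of these. With the authors' statistic read directly as a normal deviate, chosen after seeing the data, the count was 0, the CSTF2 q was 1 and the calls over all genes went from 122 to 14. With the statistic multiplied by 1.74, the ratio fitted to the authors' p-values, the count was 1, the CSTF2 q 0.000372 and the calls over all genes 158; this is no independent check. Neither reading called a pathway gene. The count of gene sums higher in BB608 went from 4 to 3 with either scaling and with the most abundant sequence. Scaling by the median ratio shifted every log2 ratio by 0.0349, less than the lowest implied SE of the tested machinery sequences, 0.13. LSM10 and LSM11 have 1 coding sequence each, so taking the most abundant one could not move them. The implied SE used next is that of each gene's most abundant sequence and no error of the gene sum. Staying within it therefore says little about stability. Of 45 settings over the 9 gene sum ratios, 44 stayed within 1 implied SE, and 5 changed the sign of an uncalled ratio near 0: ERI1 under 3 settings (to -0.01, -0.03 and -0.07), and SLBP (to 0.02) and CSTF2 (to -0.18) with the most abundant sequence. The CSTF2 change was the one larger than its implied SE. By construction, that setting leaves out the called CSTF2 sequence, which the gene sum includes. The called CSTF2 fold of 1.67 became 1.61 with a pseudocount of 0.1, 1.21 with a pseudocount of 1 and 0.12 as a gene sum, the last by construction, since the other sequences enter it; these settings were also chosen after seeing the data. The median of the 60 pathway genes lay between -0.01 and 0.04 in all settings run. Without library values, the precision of each fold rests on the authors' model alone.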

Other observations

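The Integrator complex forms the 3′ ends of small nuclear RNAs, U7 among them, and its nuclease INTS11, listed in the table as CPSF3L, is related to CPSF3. The Integrator genes looked at were INTS1 to INTS10, INTS12 and CPSF3L, after their values were seen. Any subunit listed under another name was left out. The largest subunit gene, INTS1, had a called main coding sequence, at 7.56 FPKM with DMSO and 11.2 FPKM with BB608 in the authors' deposited table. Its log2 fold was 0.57 with an implied SE of 0.12, a Cuffdiff p of 5e-05 and a q of 0.0154. This fold is a smaller multiple of its implied SE than the called CSTF2 fold is of its own. The CSTF2 call was lost with the statistic read directly as a normal deviate, so the INTS1 call is lost under that reading too. The other tested INTS1 sequence was at 2.81 and 1.51 FPKM, and INTS1 gene sums of 10.4 and 12.7 FPKM gave a log2 ratio of 0.29. Of 12 Integrator genes 1 was called, against 1.06% of all tested genes, and 2 had a sequence at an unadjusted p under 0.05, against 9.49%. Gene sums were higher in BB608 for 11 of the 12, with a median log2 ratio of 0.15, against 57.6% and 0.03 over all kept genes. That count depends on the gene sum. By the most abundant sequence INTS3, INTS10 and INTS12 were slightly lower in BB608, with log2 folds of -0.009, -0.006 and -0.02. INTS9 was higher by that measure, at 1.06 with an implied SE of 1.16, and the other genes kept the sign of their gene sum. INTS2 had the highest ratio, 0.48, at 7.06 FPKM with DMSO and 9.84 FPKM with BB608, and INTS9 the lowest, -0.18; neither was called. CPSF3L was at 41.7 and 42.5 FPKM.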
